A study of Mus musculus with 8 samples.

Results

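The early growth response factors EGR1, EGR2, EGR3 and EGR4 and the corepressors NAB1 and NAB2 were followed in Neuro 2A (N2A) cells, a mouse neuroblastoma line, after activation of the cannabinoid receptor CB1R with HU210. The 6 genes were chosen by name, with their measured levels in all 8 libraries and their HU210 to DMSO ratios at 2, 4, 6 and 8 h already known. Their values are therefore a description, and no test was applied to them. Of the 6 genes, 5 were found among the 16980 genes that the deposited expression table listed at 1 or more time points, and the expression of Egr4 was not analysed here.

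Cells were starved for 16 h in serum-free medium with 0.1% BSA and then were treated with 2 µM HU210, a synthetic CB1R agonist dissolved in DMSO, or with DMSO alone, and collected after 2, 4, 6 or 8 h. Each of the 8 conditions was 1 mRNA library, made from RNA pooled from 2 to 3 independent experiments. Expression was given as FPKM, a fragment count scaled for transcript length and for the size of the library. Every condition is 1 pool of 1 cell line, so a change at a single time point has no replicate error and cannot be tested, and p-values are not given. The reads behind each value are not known. A change in a value cannot be assigned to more cells that express a gene or to more mRNA per cell.

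Each library held between 11328 and 11444 genes at or above an FPKM of 1. Of 16 markers of neuronal and neuroblastoma cells, 14 were listed and 11 reached an FPKM of 1 in all 8 libraries. Their summed FPKM ran from 424 to 521 with HU210 and from 432 to 483 with DMSO. Tubb3 was among those not listed, and the neurofilament genes Nefl and Nefm were at or near 0. Of 12 markers of glia, endothelium, fibroblasts and immune cells, 7 were listed, 1 reached an FPKM of 1 in all 8 libraries, and the sums ran from 4.32 to 4.85 with HU210 and from 3.98 to 4.87 with DMSO. Cnr1, which encodes CB1R, had an FPKM between 15.5 and 27.9.

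The 6 h pair often ran opposite to the other 3 pairs. Among genes at or above an FPKM of 1 in all 8 libraries, 41 had all 3 HU210 libraries of 2, 4 and 8 h above all 3 DMSO libraries of those times with a mean change of at least 1.3-fold, and 36 of these (87.8%) were lower with HU210 at 6 h. Of the 37 genes that lay below DMSO in the same way, 29 (78.4%) were higher with HU210 at 6 h. Without the 1.3-fold limit the counts were 218 of 324 (67.3%) and 361 of 450 (80.2%). When another pair was set aside in the same way, the share that ran opposite in it was 50 to 53.3% for the 2 h pair, 70 to 70.6% for the 4 h pair and 50% for the 8 h pair, of 10 to 20 genes each, a comparison added after the data were seen. Over all 10899 genes at this level, 34.0% were lower with HU210 at 6 h. The labels of the 6 h libraries were not checked against a separate measure, so values with and without them are given below.

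Egr proteins are zinc-finger transcription factors that bind GC-rich sites. Their genes belong to the immediate-early class, which growth factors, depolarization and receptor signalling switch on through ERK, ternary complex factors with serum response factor, and CREB. Nab proteins bind an inhibitory domain of Egr1, Egr2 and Egr3 and recruit the NuRD complex, and Nab2 is itself a target of Egr factors, so that factor and corepressor form a feedback loop. Egr1 is widely used as a marker of neuronal activity, Egr2 controls hindbrain segmentation and myelination by Schwann cells, and Egr3 is needed for muscle spindles.

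Promoter sequence is shown for 1 Egr and both Nab genes. They had the same sign of change within each pair, which was known when they were chosen. Nab1 was close to the median of expressed genes at 8 h. The windows show side by side which of the sites read by Egr factors and their activators each holds or lacks. The sequences come from RefSeq on GRCm38.p6 and span 250 bases before to 50 bases after an annotated start, 5′ to 3′ on the strand of the gene. Of the 6 genes, 4 had windows (5 for Egr2 and 1 each for Egr4, Nab1 and Nab2), and Egr1 and Egr3 had no entry. Capitals mark the Egr site (GCGNGGGCG), the CArG box, which serum response factor binds, and the core of the cyclic AMP response element (CRE, core TGACG), each on either strand. The Egr2 window is at chr10:67537620-67537919 (plus strand), the Nab1 window at chr1:52500399-52500698 (minus strand) and the Nab2 window at chr10:127666654-127666953 (minus strand).
Egr2: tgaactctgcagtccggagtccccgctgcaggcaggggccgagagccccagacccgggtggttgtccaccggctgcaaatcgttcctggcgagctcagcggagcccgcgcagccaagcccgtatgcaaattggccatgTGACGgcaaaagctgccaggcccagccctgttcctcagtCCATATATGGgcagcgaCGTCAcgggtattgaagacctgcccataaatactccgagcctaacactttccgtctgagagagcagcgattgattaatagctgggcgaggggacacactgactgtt
Nab1: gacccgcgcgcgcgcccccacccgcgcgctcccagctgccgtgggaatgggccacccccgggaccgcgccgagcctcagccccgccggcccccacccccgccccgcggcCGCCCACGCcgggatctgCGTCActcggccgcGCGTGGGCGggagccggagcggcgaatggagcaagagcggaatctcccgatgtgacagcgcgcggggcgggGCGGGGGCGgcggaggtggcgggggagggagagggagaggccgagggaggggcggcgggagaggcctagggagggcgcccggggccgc
Nab2: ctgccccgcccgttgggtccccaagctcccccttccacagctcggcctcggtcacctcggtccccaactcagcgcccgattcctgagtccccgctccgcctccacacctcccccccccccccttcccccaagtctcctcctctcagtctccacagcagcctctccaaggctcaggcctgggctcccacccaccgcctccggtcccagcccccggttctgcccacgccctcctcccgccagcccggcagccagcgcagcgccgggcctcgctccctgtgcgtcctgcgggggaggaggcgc

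The Egr2 window held a CArG box, CCATATATGG, at positions -73 to -64 from the start, between CRE cores at -112 to -108 and -56 to -52. A CArG box occurred in 1.63% and a CRE core in 20.8% of the 32851 windows of all genes. Another 2 Egr2 windows overlap this one and hold the same matches. Of the remaining 2, one held the CArG box CCTTTTTTGG and 1 GC box, and the other held 4 GC boxes (GGGCGG). No Egr2 window held an Egr site.

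The Nab1 window held 3 Egr sites, CGCCCACGC at -141 to -133, which is the site read on the opposite strand, GCGTGGGCG at -109 to -101 and GCGGGGGCG at -38 to -30. An Egr site occurred in 5.55% of windows. The window also held 7 GC boxes, several of which overlap the Egr sites, and 1 CRE core. Only a GC box was found in the Nab2 window, as in 35.7% of all windows, and the Egr4 window held 2 CRE cores. The full CRE, TGACGTCA, occurred in 1.79% of windows and in none of these 8. These matches are letters in a window and no evidence of binding.

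**Figure D1:**
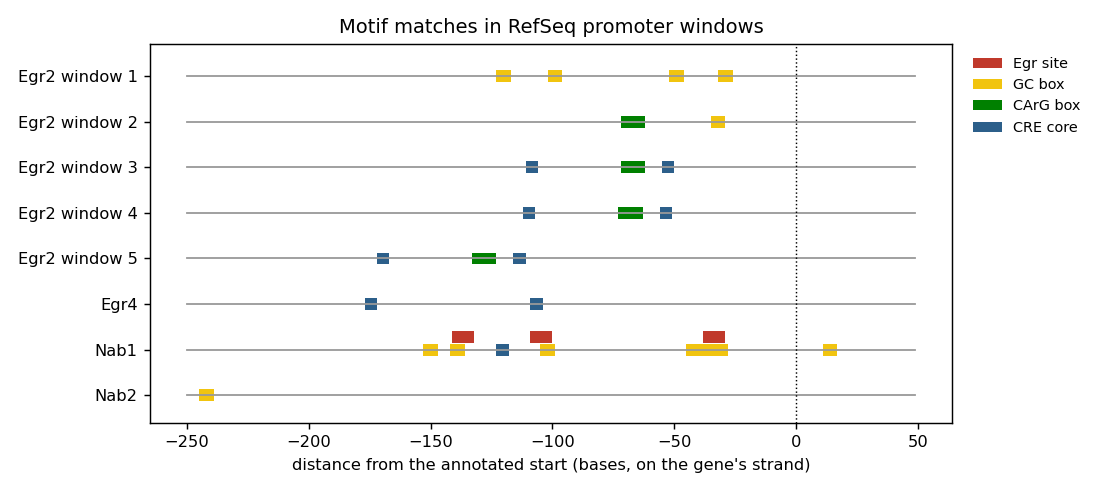
Matches to 4 motifs in the 8 RefSeq promoter windows of Egr2, Egr4, Nab1 and Nab2, by distance in bases from the annotated start (dotted line). Each bar is 1 match; Egr sites are drawn above the line because they overlap GC boxes, and the 3 Egr sites are all in the Nab1 window.

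Egr1 (ENSMUSG00000038418, mm9 chromosome 18, 35020861 to 35024638, plus strand) had the highest mean level of the 5 genes, an FPKM of 24.4 over the 8 libraries. With HU210 its FPKM was 36.8, 24.3, 19.2 and 32.2 after 2, 4, 6 and 8 h. With DMSO it was 18.3, 18.8, 27.0 and 18.9 at the same times. The DMSO libraries of 2, 4 and 8 h were thus nearly level, HU210 lay above them at each of these times, and at 6 h the order was the opposite. The ratio of HU210 to DMSO was 2.01, 1.29, 0.711 and 1.70. It was highest at 2 h, the earliest time measured, lower at 4 h and high again at 8 h.

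Egr2 (ENSMUSG00000037868, chromosome 10, 66998223 to 67004936, plus strand) was low, with a mean FPKM of 1.03. It measured 1.80, 0.967, 0.703 and 1.46 with HU210 and 0.739, 0.623, 1.15 and 0.774 with DMSO at 2, 4, 6 and 8 h. The ratios of 2.44, 1.55, 0.609 and 1.89 followed the order of Egr1. At these levels a value of 1 added to each FPKM, as the deposited table does, lowers the apparent change.

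Egr3 (ENSMUSG00000033730, chromosome 14, 70477252 to 70479964, plus strand) was also low, with a mean FPKM of 1.15. It measured 2.32, 1.33, 0.659 and 1.40 with HU210 and 0.607, 0.623, 1.56 and 0.723 with DMSO. Its ratios of 3.82, 2.13, 0.423 and 1.93 were farthest from 1 among the 5 genes at every time point. Egr3 also had the widest span, with the highest of the 8 libraries 3.82 times the lowest.

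Nab1 (ENSMUSG00000002881, chromosome 1, 52514138 to 52557523, minus strand) had a mean FPKM of 21.3 and varied least, with the highest library 1.59 times the lowest. It measured 22.9, 25.7, 19.7 and 21.1 with HU210 and 19.0, 16.2, 25.7 and 20.3 with DMSO. The HU210 library stood farthest above DMSO at 4 h, with a ratio of 1.59, where the DMSO library was also the lowest of the 8. At 2 and 8 h the ratios were 1.21 and 1.04.

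Nab2 (ENSMUSG00000025402, chromosome 10, 127097974 to 127105624, minus strand) had a mean FPKM of 16.1. It measured 22.1, 24.0, 12.5 and 16.7 with HU210 and 11.6, 12.4, 17.3 and 12.1 with DMSO. Unlike the 3 Egr genes, whose ratio fell from 2 to 4 h, Nab2 had ratios of 1.91 at 2 h and 1.95 at 4 h, before 0.721 at 6 h and 1.38 at 8 h. Part of this contrast depends on base composition, described below. After a fitted trend on GC content and length was subtracted, the log2 change of Nab2 also fell, from 0.85 at 2 h to 0.73 at 4 h. After the same subtraction the 3 Egr genes lay between 0.747 and 1.056 at 2 h and between 0.330 and 0.340 at 4 h. Nab2 thus still fell less than each of the 3 Egr genes. Both corepressor genes were highest with HU210 at 4 h, while the 3 Egr genes were highest with HU210 at 2 h.

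By mean level the order was Egr1, Nab1, Nab2, Egr3 and Egr2. Over the 4 DMSO libraries, which differ in hour and are not replicates, the mean FPKM was 20.8 ± 4.19 (SD, n = 4) for Egr1, 20.3 ± 3.98 for Nab1 and 13.3 ± 2.66 for Nab2. Egr3 had 0.878 ± 0.456 and Egr2 0.823 ± 0.230. Egr1 and Nab1 did not differ beyond this spread, nor did Egr3 and Egr2. Over the 4 HU210 libraries the means were 28.1 ± 7.85 for Egr1, 22.3 ± 2.58 for Nab1, 18.8 ± 5.27 for Nab2, 1.43 ± 0.682 for Egr3 and 1.23 ± 0.492 for Egr2.

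**Figure D2:**
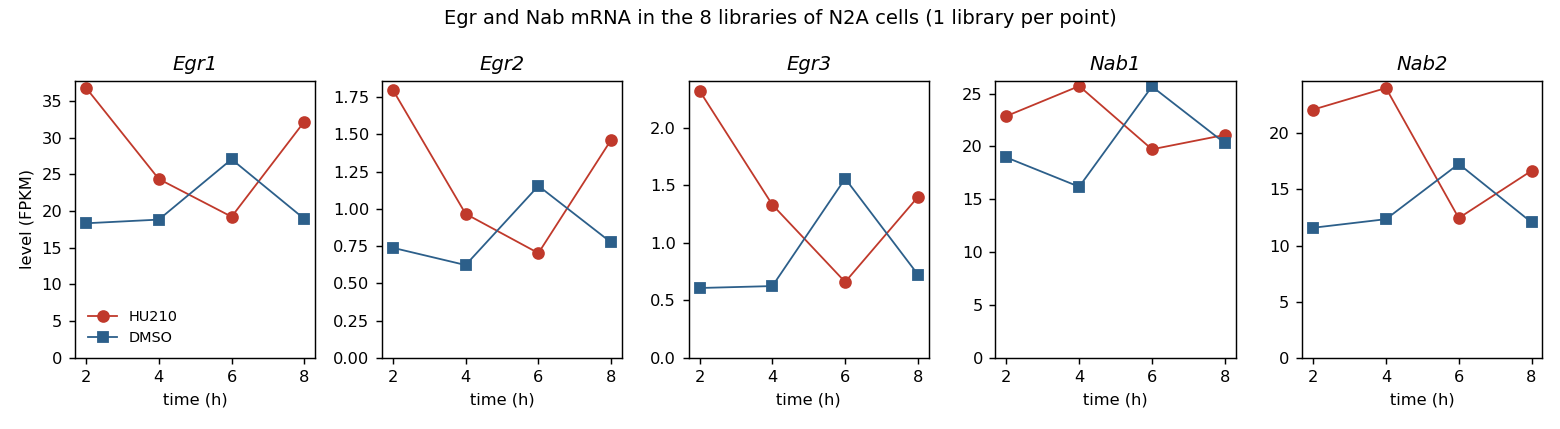
FPKM of the 5 genes against time in hours, 1 library per point, with HU210 as circles and DMSO as squares and the vertical axes starting at 0. In every panel HU210 lies above DMSO at 2, 4 and 8 h and below it at 6 h.

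Changes were next put on the scale log2 of (FPKM + 1) with HU210 over (FPKM + 1) with DMSO, and a 1.5-fold difference was taken as a call. This scale understates the changes of Egr2 and Egr3. At 2 h the log2 change was 1.05 for Egr3, 0.97 for Egr1, 0.88 for Nab2, 0.69 for Egr2 and 0.26 for Nab1, so that 4 of the 5 genes were past 1.5-fold. Of all genes listed at 2 h, 0.691% were higher and 1.33% lower by 1.5-fold. Among the 11575 genes that reached an FPKM of 1 in 1 or both libraries, 0.337% had a change as high as Egr3, 0.363% as high as Egr1, 0.389% as high as Nab2 and 0.613% as high as Egr2.

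At 4 h Nab2 had a log2 change of 0.91 and Nab1 of 0.64, both past 1.5-fold, and Egr3, Egr1 and Egr2 had 0.52, 0.35 and 0.28. The 4 h pair had the widest spread of all genes, with 2.16% higher and 6.46% lower by 1.5-fold. Higher genes made up 25.1% of those past 1.5-fold, and 42.6% once the pair was centred on its median ratio. A change as high as that of Nab2 was found in 0.701% and one as high as that of Nab1 in 2.26% of expressed genes. The log2 changes of that pair also followed base composition, with a Spearman correlation with transcript GC content of 0.54 across 10287 genes that share the 2 libraries, against 0.17, -0.31 and -0.16 at 2, 6 and 8 h. The GC content was 47.2% for Nab1, 60.1% for Nab2, 51.4% for Egr2, 53.5% for Egr1 and 62.1% for Egr3. After a fitted trend on GC content and transcript length was subtracted, the 4 h changes were 0.85 for Nab1, 0.73 for Nab2 and 0.34 for Egr3.

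At 6 h all 5 changes were negative, with -0.62 for Egr3, -0.47 for Egr1, -0.44 for Nab2, -0.36 for Nab1 and -0.34 for Egr2, and only Egr3 was past 1.5-fold. Of all genes, 1.58% were higher and 0.837% lower by 1.5-fold at this time, a share of 65.4% higher that became 53.6% with the pair centred. At 8 h the changes were 0.74 for Egr1, 0.48 for Egr3, 0.47 for Egr2, 0.43 for Nab2 and 0.051 for Nab1, and only Egr1 was past 1.5-fold, beside 1.16% of genes higher and 0.629% lower. Nab1 at 8 h was close to the median of expressed genes, 0.045. Counted at 1.3-fold, 4, 3, 3 and 4 of the 5 genes were past the threshold at 2, 4, 6 and 8 h, beside 4.92%, 21.1%, 6.96% and 5.20% of all listed genes.

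**Figure D3:**
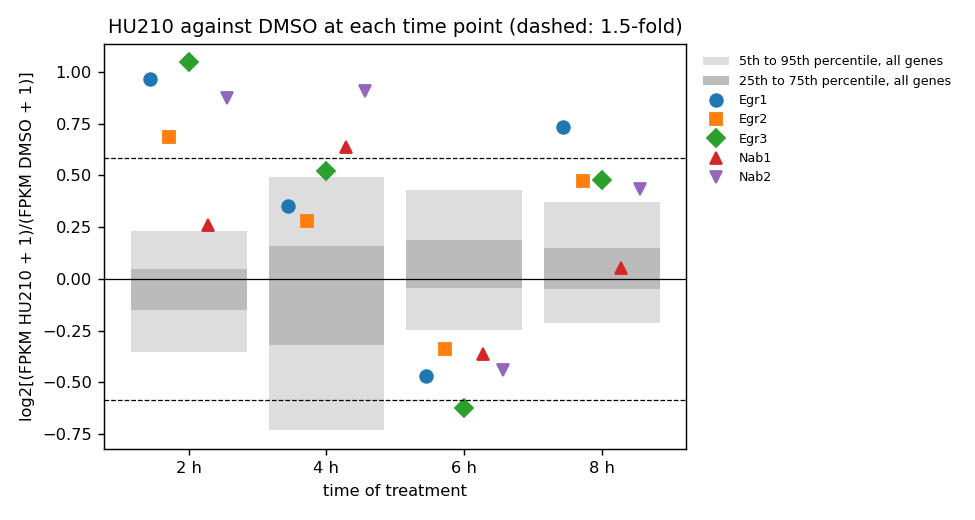
Log2 change with HU210 against the DMSO library of the same hour for the 5 genes, over the range of all genes that reached an FPKM of 1 in 1 or both libraries (grey bands) and with dashed lines at 1.5-fold. The points lie above the 95th percentile at 2 h for all 5 genes and below the 5th percentile at 6 h for all 5.

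All 5 genes were higher with HU210 at 2, 4 and 8 h and lower at 6 h. This order of signs was chosen with the genes and is no result about them. It was present in 7.55% of genes that reached an FPKM of 1 in all 8 libraries and in 7.04% of all 15888 genes listed at all 4 time points. For all 5 genes the 3 HU210 libraries of 2, 4 and 8 h lay above the 3 DMSO libraries of those times without overlap, as for 3.13% of all genes. Egr1 had HU210 values from 24.3 to 36.8 against 18.3 to 18.9, and Egr3 from 1.33 to 2.32 against 0.607 to 0.723. The gap was narrower for Nab1, from 21.1 to 25.7 against 16.2 to 20.3. None of the 5 had all 4 HU210 libraries above all 4 DMSO libraries, a pattern held by 0.403% of genes.

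The DMSO library of 6 h was the highest of the 4 DMSO libraries for each of the 5 genes, and it lay within the range of the HU210 libraries of 2, 4 and 8 h. Its gap to the next DMSO library took 0.932 of the whole DMSO range for Egr1, 0.878 for Egr3 and 0.865 for Nab2, 0.715 for Egr2 and 0.564 for Nab1. With the ratio of Dixon's rule for 4 values taken only as a size, the library was set apart as high for Egr1, Egr3 and Nab2 and for 1.09% of all genes. These values chose the genes and come from different hours, so this is a description. The HU210 library of 6 h was the lowest HU210 library for all 5 genes.

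With the mean of the DMSO libraries of 2, 4 and 8 h as the reference, a choice made after the data were seen, the 6 h changes were 0.038 for Egr1, -0.0067 for Egr2, 0.0076 for Egr3, 0.095 for Nab1 and 0.049 for Nab2. With the mean of all 4 DMSO libraries they were -0.089, -0.090, -0.15, -0.020 and -0.074 in the same order. At 6 h the HU210 library was therefore close to DMSO levels under either mean, and no gene was past 1.5-fold. The 4 h change of Nab1 was 0.35 against the 4 DMSO libraries and 0.46 against those of 2, 4 and 8 h, below 1.5-fold under both, while Nab2 stayed past it.

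**Figure D4:**
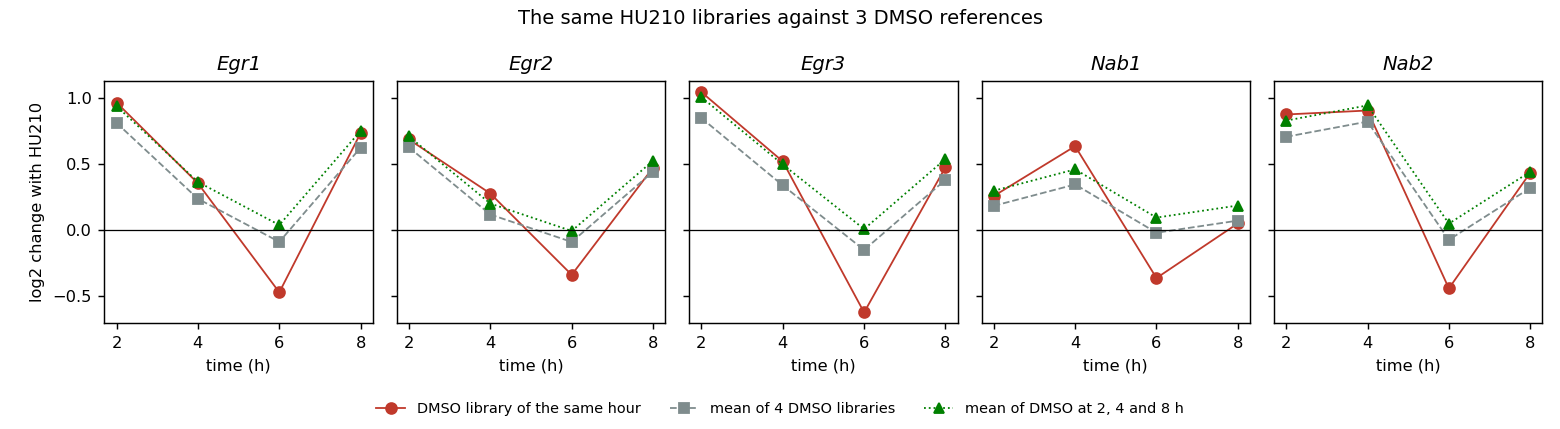
Log2 change of each HU210 library against 3 DMSO references, by time in hours: the DMSO library of the same hour, the mean of all 4 DMSO libraries, and the mean of those of 2, 4 and 8 h. The negative 6 h points of the first reference move to between -0.15 and 0.095 with the other references.

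Annotation bears on the Nab2 and Egr1 values. Genes on the opposite strand overlap Nab2 exons by 40 bases (Stat6), 151 bases (Tmem194) and 1050 bases (Gm16229, for which no value was used), and whether the counting used strand is not given in the sources used here. Stat6 had an FPKM from 11.2 to 16.2 and Tmem194 from 7.39 to 9.11. The exons of Egr1 overlap those of Gm17507 by 8 bases. The longest run of identical bases was 44 between Egr2 and Egr3 transcripts and 46 between Nab1 and Nab2, and 14 to 17 between Egr1 and the other Egr genes.

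On the log2(FPKM + 1) scale, the time courses of the 3 Egr genes were close to one another. The root mean square (RMS) difference of their log2(FPKM + 1) values, each centred on its mean over the 8 libraries, was 0.104 between Egr1 and Egr2, 0.104 between Egr1 and Egr3 and 0.145 between Egr2 and Egr3. On this scale Nab2 was nearest to Egr3, at 0.184, and was 0.239 from Nab1. The added 1 damps the changes of Egr2 and Egr3, which were low, but hardly those of Egr1, Nab1 and Nab2. Distances between these genes were not recomputed without it, so their order may depend on it. By the same measure the genes outside the family nearest to Egr1 were Slc39a13, a zinc transporter (0.140), Cxcl1, a chemokine (0.146), and Sertad1, a transcriptional coregulator (0.166). Nearest to Nab2 were Gdf15, a stress-induced cytokine (0.160), Tnfrsf12a, the TWEAK receptor (0.180), and Sertad1 (0.184). Nearest to Nab1 were Diaph1, a formin (0.0345), Tm9sf4 (0.0505) and the diacylglycerol kinase gene Dgkz (0.0633). Egr2 and Egr3 had libraries with an FPKM under 1 and were not compared with all genes.

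Lists of genes around the Egr factors were then counted. Of 38 genes that have been reported as Egr targets, 30 or 31 were listed at each time, with median log2 changes of 0.017, 0.029, -0.0049 and 0.095 at 2, 4, 6 and 8 h beside -0.017, -0.011, 0.022 and 0.018 for all listed genes. At 2 h 2 targets were higher by 1.5-fold and none lower. Ndrg1, a differentiation and hypoxia-responsive gene, went from 2.30 to 7.68 FPKM (log2 change 1.39), and Arc, a regulator of synaptic receptor trafficking, from 7.40 to 11.7 (0.60). Ndrg1 was lower with HU210 at 4 h, at 1.87 against 3.23 with DMSO (-0.56). It also varied with DMSO alone, where it reached 6.10 at 6 h. At 4 h 2 were higher, Sod1, which encodes superoxide dismutase (1.23), and Tgfb1 (0.62), and 3 were lower, among them Ache, which encodes acetylcholinesterase (-1.21), and Syn1, which encodes a synaptic vesicle protein (-0.76). When all 4 DMSO libraries were averaged as the reference, Ndrg1 and Sod1 stayed past 1.5-fold at 1.03 and 0.84, while Arc (0.47), Tgfb1 (0.35), Syn1 (-0.34) and Ache (-0.015) did not. Arc was also below it at 0.58, and Tgfb1 at 0.45, after the fitted trend was subtracted. Against the DMSO library of the same hour, none was past 1.5-fold at 6 or 8 h. With all 4 DMSO libraries averaged, 2 targets were past it at 6 h and 1 at 8 h. With a pseudocount of 0.1, there was 1 at 8 h.

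Of the 30 targets listed at all 4 time points, 10 had the sign order of the Egr and Nab genes and 7 had HU210 above DMSO at 2, 4 and 8 h without overlap, beside 7.04% and 3.13% of all genes. Among these 7, named after their values were seen, were Arc, Tgfb1, Pdgfa, F3, Igf2 and Ngfr, with Igf2 at an FPKM of at most 0.111. For none of the 30 was the 6 h DMSO library set apart as high, as it was for 1.09% of all genes. These features were read from the Egr and Nab genes, and the lists were chosen with earlier results of these data known. All genes also share the same libraries, so these counts are a description and no test.

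Of 25 other immediate-early genes, 24 or 25 were listed, with median changes of 0.12, 0.041, 0.013 and 0.18. Only Dusp6, a phosphatase that inactivates ERK, was past 1.5-fold, at 2 h. It measured 74.7, 69.0, 66.5 and 76.8 FPKM with HU210 and 47.5, 51.5, 74.8 and 58.6 with DMSO, and its 2 h change was 0.64. That change was 0.38 against the mean of all 4 DMSO libraries and 0.51 against those of 2, 4 and 8 h, below 1.5-fold under both. At 8 h 24 of the 25 were higher with HU210, beside 56.2% of all listed genes. With the pair centred the count was 19 of 25, beside 42.4%. Of the 24 listed at all 4 times, 9 had the sign order of the Egr and Nab genes, beside 7.04% of all genes. The 3 HU210 libraries of 2, 4 and 8 h lay above DMSO without overlap for 8, beside 3.13% of all genes. These were Fos, Fosb, Fosl1, Junb, Ier2, Ier3, Dusp6 and Ccn1, also named after their values were seen. Fosl1 had an FPKM of at most 0.0415 and was listed at 0 with DMSO at 4 h, and Fosb had at most 0.493. As for the targets, the counts of genes with these features are a description and no test.

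Of 13 upstream genes (the ERK cascade, ternary complex factors, Srf and its cofactors, and Creb1), 1 was higher at 2 h, 3 were lower at 4 h, and none was past 1.5-fold at 6 or 8 h. Elk4, a ternary complex factor, had 1.09 at 2 h and -0.64 at 4 h, but 0.17 and -0.16 with the averaged DMSO reference. The kinase gene Braf had -0.60 at 4 h, and -0.21 after the fitted trend was subtracted. Creb1 had -0.53 at 8 h, and -0.63, past 1.5-fold, after the same subtraction. Of 12 cofactors and competitors of Egr factors, 11 or 12 were listed and only Ddx20, a helicase reported to repress Egr2 activity, was past 1.5-fold, with -0.73 at 4 h. Its change was -0.24 with the averaged DMSO reference and -0.53 after trend subtraction, so that it no longer passed. The median changes at 2, 4, 6 and 8 h were -0.061, -0.21, 0.13 and 0.00074 for the upstream genes and 0.064, -0.15, 0.036 and 0.086 for the cofactors. No cofactor and 1 upstream gene had the sign order of the Egr and Nab genes.

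**Figure D5:**
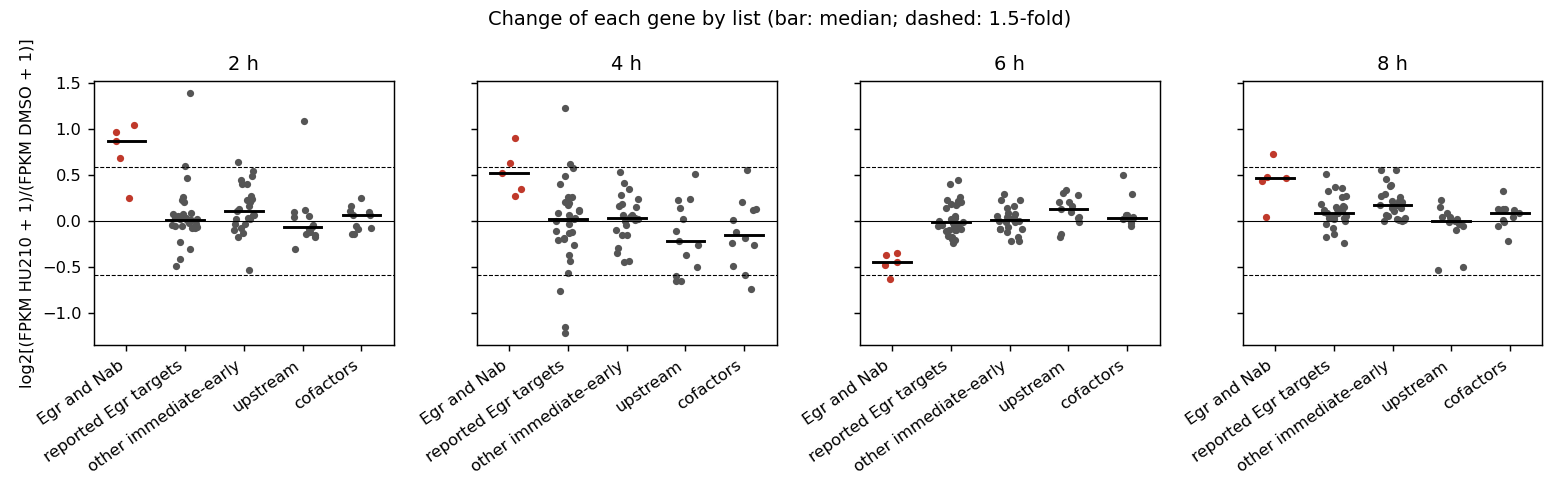
Log2 change with HU210 of each gene at each time point, for the 5 Egr and Nab genes and for 4 lists, with a bar at each median and dashed lines at 1.5-fold. The 4 list medians lie between -0.21 and 0.18, and the Egr and Nab genes lie away from them at 2 and 6 h.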

How the data were processed

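The 8 mRNA libraries of N2A cells, 1 per condition, were analysed. The authors mapped reads to mm9 with TopHat 2.0.8, bowtie 2.1.0 and samtools 0.1.7 and obtained FPKM with Cufflinks and Cuffdiff (version not given in the sources used here), with upper-quartile normalization and corrections for fragment bias and for reads that map to several places. The deposited FPKM have 1 added, which was subtracted for levels and kept for log2 changes. Upper-quartile scaling makes all values relative to each library. The authors' fold changes, p-values and list of differential genes were not used. Depth per gene is unknown.

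The members and lists were chosen with earlier results of these data known. Named were all members, up to 5 genes per list and time with the largest changes past 1.5-fold (FPKM of at least 1 in 1 or both libraries), and for each member with FPKM of at least 1 in all 8 libraries the 3 genes nearest by RMS difference. A few list genes that this rule names are not reported here. Positions and GC content came from GENCODE vM1 on mm9. Trends on GC content and length were fitted by loess (span 0.3, degree 1). Python 3.11.15 (numpy 2.4.6, pandas 2.3.3, scipy 1.17.1, matplotlib 3.10.9) and R 4.3.3 were used, and the scripts were tested on simulated data. Alternatives were a pseudocount of 0.1, a 1.3-fold threshold, centred pairs, mean DMSO references and the trend removed.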

Additional observations from a re-analysis of the deposited data

Results flagged for a closer look

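In the DMSO libraries of 2, 4, 6 and 8 h, the 6 h library lay far above the others for 3 of the 5 genes. Its gap to the nearest library, as a share of the whole range, was 0.932 for Egr1, 0.878 for Egr3 and 0.865 for Nab2. The 4 libraries differ in time of treatment and are not replicates, the 5 genes share them, and the genes were chosen with these values known, so the ratios are a description and no test.

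The change with HU210 had the opposite sign at 6 h from that at 2, 4 and 8 h for all 5 genes. The log2 change at 6 h was -0.47 for Egr1, -0.34 for Egr2, -0.62 for Egr3, -0.36 for Nab1 and -0.44 for Nab2. With 1 library per condition, the difference between time points was not tested. The labels of the 6 h libraries were not checked against a separate measure.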

How the results depend on the processing

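Each value rests on 1 library per condition, so no replicate could be left out. The paper states the range of total reads per sample, but the reads per gene are unknown. No replicates could be paired within a time point, because each condition had 1 library. The 4 HU210 and DMSO pairs of different hours were not tested together, since their values chose the genes. Of 20 log2 changes of the 5 genes, 20 kept their sign with a pseudocount of 0.1, with centred pairs and with the mean of the 4 DMSO libraries as the reference, 19 after trend removal (Nab1 at 8 h was -0.0064) and 16 against the mean DMSO of 2, 4 and 8 h, chosen after seeing the data. Of 8 changes past 1.5-fold, 8 stayed past it with the smaller pseudocount, centring and trend removal, and 6 with either mean reference.

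The count of genes past 1.5-fold at 4 h went from 2 to 1 with either mean reference, and to 3 with a pseudocount of 0.1, with centred pairs and at 1.3-fold. At 6 h it went from 1 to 0 with either mean, where Egr3 reached 0.0076 against DMSO of 2, 4 and 8 h, to 2 with a pseudocount of 0.1, and to 3 at 1.3-fold. At 8 h it went from 1 to 3 with that pseudocount and to 4 at 1.3-fold. A smaller pseudocount raises the changes of low genes by construction, and the cause of the other changes was not tested. Leaving out the 6 h libraries, also chosen after seeing the data, took the number of genes with all HU210 above all DMSO libraries from 0 to 5.

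Of all listed genes, 2.02%, 8.62%, 2.42% and 1.79% were past 1.5-fold at 2, 4, 6 and 8 h. These became 5.75%, 15.1%, 7.27% and 6.03% with a pseudocount of 0.1, and 4.92%, 21.1%, 6.96% and 5.20% at 1.3-fold. After trend removal they were 1.05%, 4.74%, 1.49% and 1.04%, over only the genes with a GC content (14143 at 8 h). With the mean of the 4 DMSO libraries the 4 h share was 1.69% and the 6 h share 1.49%, over the 15888 genes listed at all 4 time points. The shares of these 2 settings are thus over fewer genes than the first. Of the 3 genes nearest to Egr1, Nab1 and Nab2, 3, 3 and 2 were shared with a pseudocount of 0.1 and with libraries scaled to a common median.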

Other observations

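Of the 15888 genes listed at all 4 time points, 32 (0.201%) shared 3 features, which were the sign order of the Egr and Nab genes, HU210 above DMSO at 2, 4 and 8 h without overlap, and a 6 h DMSO library set apart as high. Egr1, Egr3 and Nab2 were among them, as was Ier5l, an immediate-early response gene named after its values were seen. Ier5l was not in the list of other immediate-early genes. Of the 24 genes of that list with values at all 4 times, 0 had a 6 h DMSO library set apart as high, beside 1.09% of all genes. The 3 features were read from the values of the Egr and Nab genes themselves, so that their presence in this set was fixed by that choice.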
